A study of Mus musculus with 8 samples.

Results

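The 8 genes described here are the 3 retinoic acid receptor genes Rara, Rarb and Rarg, the 3 retinoid X receptor genes Rxra, Rxrb and Rxrg, and the retinoic acid hydroxylase genes Cyp26a1 and Cyp26b1. They were chosen by symbol: every probe set whose platform annotation named 1 of these genes alone was taken, which gave 11 probe sets for the 8 genes, of 18193 genes named in this way on the array. The males of the series were 4 FVB/N embryos at embryonic day 14 (Theiler stage 22), and the females were 4 embryos of the same strain and stage. No genetic alteration or treatment is given in the labels for either sex. From each embryo the genital tubercle region, the outgrowth that later forms the penis or the clitoris, was microdissected without pooling, and its total RNA was amplified in 2 rounds and hybridized to 1 Affymetrix MOE430 array. The region holds mesenchyme, epithelium, vessels, nerves and muscle together, so fewer cells of a type and less RNA per cell cannot be told apart.

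Retinoic acid, a derivative of vitamin A, enters the nucleus and binds receptors of the RAR family, which sit on DNA as heterodimers with an RXR partner. Without ligand the heterodimer recruits corepressors, and with ligand it recruits coactivators. The CYP26 enzymes are cytochrome P450 hydroxylases that break retinoic acid down and so limit where it acts. Excess retinoic acid is known to disturb the formation of the mouse genital tubercle, and Cyp26b1 is known for removing retinoic acid from the fetal mouse testis.

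Some of these genes are themselves regulated by retinoic acid, and the sequence through which this is known to work lies in front of Rarb and Cyp26a1. The 250 bases before the RefSeq transcript start (build GRCm38.p6) are shown for these genes, and for Cyp26b1 as the CYP26 gene without that repeat. Capitals mark a DR5 match in Rarb and Cyp26a1, a direct repeat of the receptor hexamer with a spacer of 5 bases, and TATAAA in Cyp26b1. The windows are chr14:16575477-16575726 (minus strand), chr19:37697558-37697807 (plus strand) and chr6:84593811-84594060 (minus strand), each written in the direction of transcription.
Rarb: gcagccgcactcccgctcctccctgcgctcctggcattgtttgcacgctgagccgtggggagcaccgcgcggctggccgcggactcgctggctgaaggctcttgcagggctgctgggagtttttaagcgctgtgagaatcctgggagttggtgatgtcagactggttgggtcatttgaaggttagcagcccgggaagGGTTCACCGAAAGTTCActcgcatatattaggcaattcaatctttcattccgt
Cyp26a1: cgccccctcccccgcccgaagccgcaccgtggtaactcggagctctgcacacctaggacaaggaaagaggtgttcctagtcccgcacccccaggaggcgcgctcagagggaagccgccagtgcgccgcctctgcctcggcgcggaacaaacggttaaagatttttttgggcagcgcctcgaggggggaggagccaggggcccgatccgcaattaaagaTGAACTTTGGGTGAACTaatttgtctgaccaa
Cyp26b1: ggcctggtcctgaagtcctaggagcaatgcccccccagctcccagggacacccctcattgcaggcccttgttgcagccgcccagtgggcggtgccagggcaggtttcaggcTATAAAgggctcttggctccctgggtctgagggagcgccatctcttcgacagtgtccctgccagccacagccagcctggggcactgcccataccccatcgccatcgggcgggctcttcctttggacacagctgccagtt
The Rarb match, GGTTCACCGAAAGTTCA, lay 53 to 37 bases before the start on the strand of the gene. The Cyp26a1 match lay 32 to 16 bases before the start on the opposite strand and reads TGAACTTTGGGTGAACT on the strand of the gene. The repeat was searched by its name's consensus on both strands, as were DR1 and DR2, the same hexamers with shorter spacers. A DR5 match was rare in general: 29 of 32851 windows of this length held one (0.0883%). None of the 15 windows of the 8 genes held DR1 or DR2, which occurred in 0.164% and 0.174% of all windows. TATAAA, found in 12.4% of all windows, was present in Cyp26b1 alone among the 8 genes, 139 to 134 bases before the start. GGGCGG, the core of a GC box and found in 32.7% of all windows, occurred at Rara, Rarg, Rxra, Rxrb, Cyp26a1 and Cyp26b1, and in no window of Rarb or Rxrg. No match overlapped one of another motif. These matches describe letters in these windows and are not evidence of binding.

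**Figure D1:**
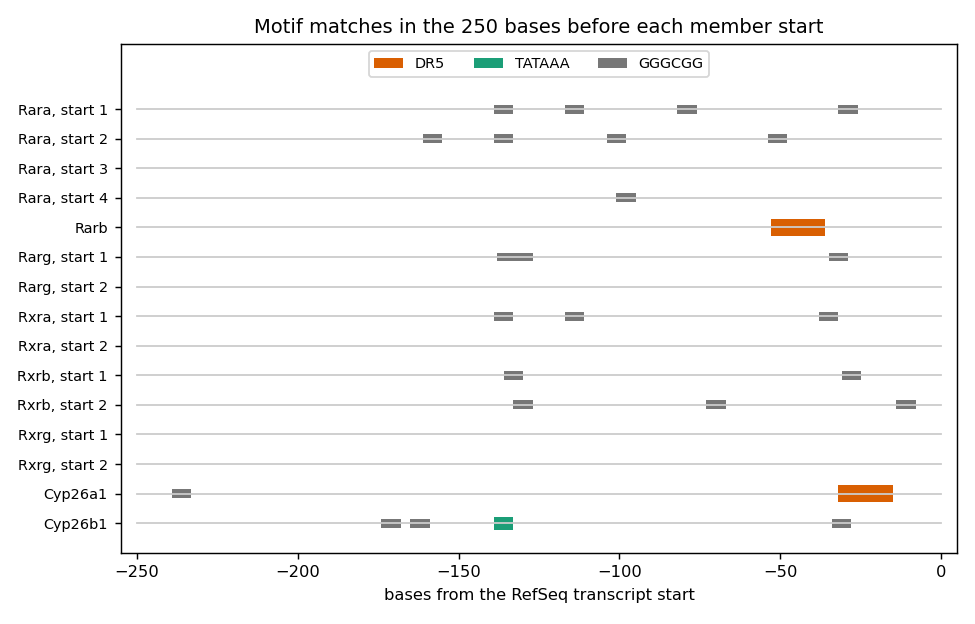
Matches to DR5, TATAAA and GGGCGG in the 250 bases before each RefSeq transcript start of the 8 genes, as bases from the start on the x axis and 1 line per start. The DR5 repeats of Rarb and Cyp26a1 both lie within 53 bases of the start.

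Before the sexes are compared, the state of the arrays is given in brief. The deposited intensities are on a linear scale with a 2% trimmed mean of 1500.01 on every array. Y-linked genes went with the labels, with Eif2s3y at 5480.0 ± 950 on male arrays and 48.4 ± 20.1 on female arrays (SD, n = 4 each). Male replicate 3 stood apart in Xist, the RNA of the inactive X chromosome, which read 16036 there against 230 to 620 on the other male arrays, so the differences of the tested members are also given without it. The median intensity was 212 to 249 on male arrays and 184 to 207 on female arrays, and the 3' probe set for 18S ribosomal RNA read 26742 ± 5680 on male arrays and 13215 ± 4445 on female arrays (exact permutation test, two-sided, p = 0.0286 for each, the smallest this design allows, adjusted p = 0.0858 over 6 measures). Of 7 tubercle markers, Hoxd13, Isl1 and Shh were the brightest in both sexes, and Hoxa13 was too dim to test. Of 6 tested, 0 were higher and 5 lower in males. The summed level over the 7, which rests mainly on those brightest genes, was 83756 to 85799 on male arrays and 97861 to 113140 on female arrays. The 7 skeletal muscle markers, 6 of them higher in males, summed to 11099 to 17967 on male arrays and 3584 to 8363 on female arrays. Of 4 tested cartilage markers 3 were higher in males, and the 6 listed summed to 6835 to 12610 on male arrays and 3974 to 4692 on female arrays. Of 7 epithelial markers 1 was higher and 4 lower in males, with sums of 47438 to 51730 on male arrays and 47291 to 54564 on female arrays. The 1 higher, Trp63, was the brightest (22769 ± 2033 in males and 16305.5 ± 1322 in females) and weighs heavily in these sums. The 4 lower were Krt5, Krt8, Krt14 and Krt18. Of 5 vessel markers 3 were higher and 1 lower in males, with sums of 8634 to 10787 on male arrays and 6742 to 7905 on female arrays. Of 5 tested neuron markers 3 were higher and 2 lower in males, and the list summed to 10909.6 to 14207 on male arrays and 8779 to 10433 on female arrays. Of 4 macrophage markers 2 were higher and 1 lower in males, with sums of 5377 to 6443 on male arrays and 3997 to 4629 on female arrays. Of the gonad and genital duct markers, 2 were bright enough to test and neither passed. Markers were counted on their brightest tested probe set by the limma rule given below. By that rule 14% of all 11489 tested genes were higher in males and 28.2% were lower. Other tested probe sets of Isl1 (1), Krt14 (1) and Csf1r (2) went the other way, none of them called. The part of tissue makeup in the member differences was not tested.

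The comparison of male and female tubercles is the question of the series. Of the 11 member probe sets, 7 (of 6 genes) had a mean log2 value at or above the array-wide median of 7.77 and were tested. Rxrb, Rarg and Cyp26b1 were lower in males. Rarb, Cyp26a1 and the tested probe sets of Rxra missed the threshold. Each difference is the male minus the female mean of log2(intensity + 16), a scale that understates the change of dim genes. Its standard error (SE) comes from a limma fit over all 22519 tested probe sets. A call means a Benjamini-Hochberg adjusted p under 0.05 over all of them. By this rule 3 of 7 members were called (42.9%), beside 40.5% of all tested probe sets. All 3 were lower in males, as were 21.9% of all tested probe sets, while 0 members were called higher in males by limma (0 also at an unadjusted p under 0.05), beside 18.7% of all tested probe sets. The share of members called was therefore near that of the array. The median difference of the 7 was -0.33, beside -0.01 over all tested probe sets. With each gene read on its brightest tested probe set, the median over all tested genes was -0.12. Of those genes 28.2% were called lower and 14% higher in males. The number of arrays limits the precision, and the labels do not say whether embryos shared a litter or a processing day, so the p-values cover only the spread among these arrays, part of which may be technical.

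**Figure D2:**
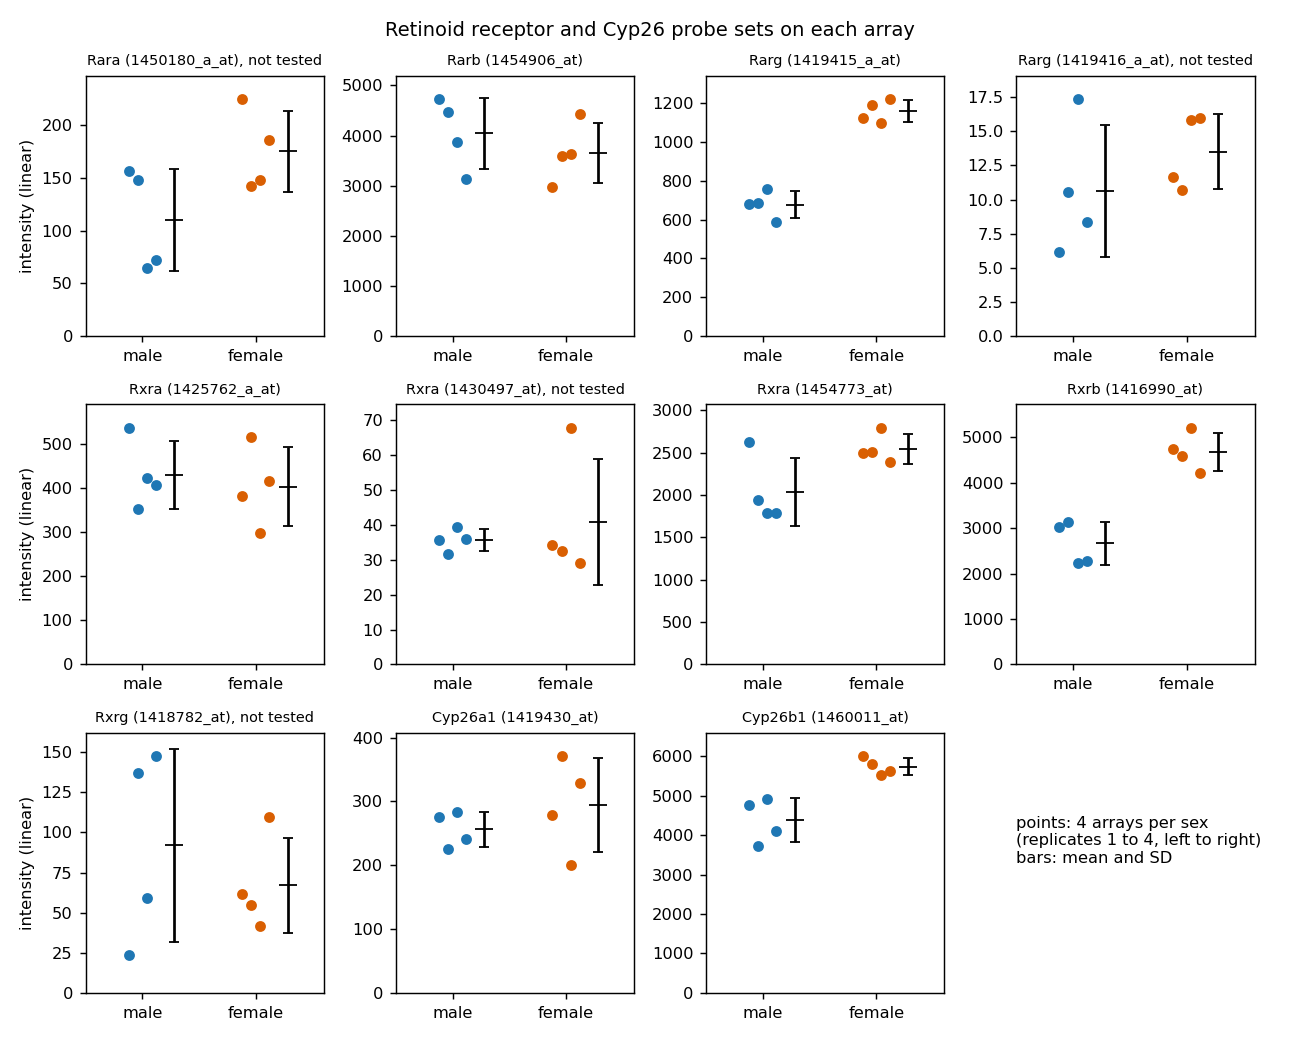
Linear intensity of each of the 11 member probe sets on every array, males left and females right, with the mean and SD of 4 arrays beside the points. The male and female points of Rarg (1419415_a_at), Rxrb and Cyp26b1 do not overlap, and the panels marked as not tested lie below the intensity filter.

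Rarg was the RAR gene that was called. It encodes RAR gamma, the receptor known for its high expression in mesenchyme that forms cartilage and in skin. Its probe set 1419415_a_at read 681, 684, 756 and 588 on male replicates 1 to 4, and 1127, 1193, 1097 and 1220.5 on female replicates 1 to 4. Every male array lay below every female array, a separation that 37.1% of all tested probe sets also showed. The means were 677 ± 69.1 in males and 1159 ± 57.4 in females (SD, n = 4 each), a male over female ratio of 0.584. The difference was -0.77 ± 0.14 (SE, limma adjusted p = 0.00151), with a 95% interval of -1.08 to -0.46. Without male replicate 3 it was -0.82 (limma adjusted p = 0.00262). The other Rarg probe set, 1419416_a_at, lay below the filter with 6.19 to 17.3 in males and 10.7 to 15.95 in females, so Rarg was read on 1 probe set only.

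Rarb encodes RAR beta, the family member whose own promoter responds to retinoic acid through the repeat shown above. It read 4720.0, 4470.4, 3872 and 3125 on male replicates 1 to 4, against 2969.9, 3592, 3630.0 and 4436 on female replicates 1 to 4. The ranges of the sexes overlapped over most of their length. The means were 4047 ± 710.0 in males and 3657 ± 601 in females (SD, n = 4 each). The difference of 0.14 ± 0.15 did not pass (limma adjusted p = 0.484), and its 95% interval ran from -0.19 to 0.48. Without male replicate 3 it was 0.16 (limma adjusted p = 0.51).

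Rara encodes RAR alpha, the most widely expressed RAR. Its single probe set was dim, with 156, 148, 64.05 and 72.1 on male replicates 1 to 4 and 224, 142, 148 and 186 on female replicates 1 to 4. For scale, the Y-linked genes Eif2s3y, Uty and Kdm5d averaged 48.4, 49.0 and 51.9 on the female arrays, where their transcripts are absent. Male replicates 3 and 4 were lower than every other array, and the ranges of the sexes overlapped. The Rara probe set was below the filter and was not tested. With no filter its difference was -0.66 ± 0.33, which missed the threshold (limma adjusted p = 0.202).

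Of the RXR genes, which supply the shared partner of RARs and of several other nuclear receptors, Rxrb was called. It encodes RXR beta, a broadly expressed form. It read 3022, 3127, 2228 and 2281 on male replicates 1 to 4, and 4732, 4579, 5201 and 4202 on female replicates 1 to 4. The highest male array lay below the lowest female array. The means were 2665 ± 476 in males and 4679 ± 414 in females (SD, n = 4 each), a male over female ratio of 0.57. The difference was -0.82 ± 0.14 (limma adjusted p = 0.000772), with a 95% interval of -1.12 to -0.52, and it was -0.74 without male replicate 3 (limma adjusted p = 0.00295).

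Rxra, which encodes RXR alpha, the form essential for embryonic heart and eye development in the mouse, was read on 3 probe sets, 2 of them tested. The brightest, 1454773_at, read 2626, 1941, 1793 and 1791 on male replicates 1 to 4 and 2496, 2506, 2793 and 2385 on female replicates 1 to 4. Male replicate 1 lay within the female range and the other 3 males lay below it. The difference was -0.33 ± 0.14 and did not pass (limma adjusted p = 0.0779, unadjusted p = 0.036). This outcome turned on 1 array: without male replicate 1 the difference was -0.46 and passed (limma adjusted p = 0.00778), and with array weights it was -0.43 and passed (limma adjusted p = 0.0103).

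The Rxra probe set 1425762_a_at read 536, 353, 422 and 406 on male replicates 1 to 4 and 382, 516, 299 and 415 on female replicates 1 to 4. These overlapped, with a difference of 0.10 ± 0.21 (limma adjusted p = 0.736) and a 95% interval of -0.36 to 0.55, and its sign turned under several alternatives. Without male replicate 3 the differences were -0.28 for 1454773_at (limma adjusted p = 0.177) and 0.10 for 1425762_a_at (limma adjusted p = 0.766). The probe set 1430497_at was below the filter, with 31.6 to 39.3 in males and 29.0 to 67.7 in females. Rxrg, which encodes RXR gamma, a form known from muscle and the nervous system, was also below the filter. It read 23.9, 137, 59.0 and 147 on male replicates 1 to 4 and 61.7, 54.7, 41.7 and 109.8 on female replicates 1 to 4, levels that reach down to those of Y-linked probe sets on female arrays. Without a filter Rxrg differed by 0.23 ± 0.47 (limma adjusted p = 0.789).

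Of the CYP26 genes, Cyp26b1 was called. It read 4759, 3722, 4913 and 4110.4 on male replicates 1 to 4, and 5995, 5806, 5520.1 and 5614 on female replicates 1 to 4. No male array reached the lowest female array. The means were 4376 ± 558 in males and 5734 ± 211 in females (SD, n = 4 each), a male over female ratio of 0.763. The difference was -0.40 ± 0.11 (limma adjusted p = 0.0118) with a 95% interval of -0.63 to -0.16. Without male replicate 3, the male array with the highest Cyp26b1 value, it was -0.46 (limma adjusted p = 0.0106).

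Cyp26a1, the CYP26 gene that retinoic acid is known to induce most directly, lay just above the filter. It read 275, 226, 284 and 241 on male replicates 1 to 4 and 279, 371, 200.05 and 329 on female replicates 1 to 4. The male values lay inside the female range. The difference was -0.16 ± 0.22 and did not pass (limma adjusted p = 0.592), with a 95% interval of -0.65 to 0.32. Without male replicate 3 it was -0.21 (limma adjusted p = 0.537). Cyp26c1 was not analysed here.

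**Figure D3:**
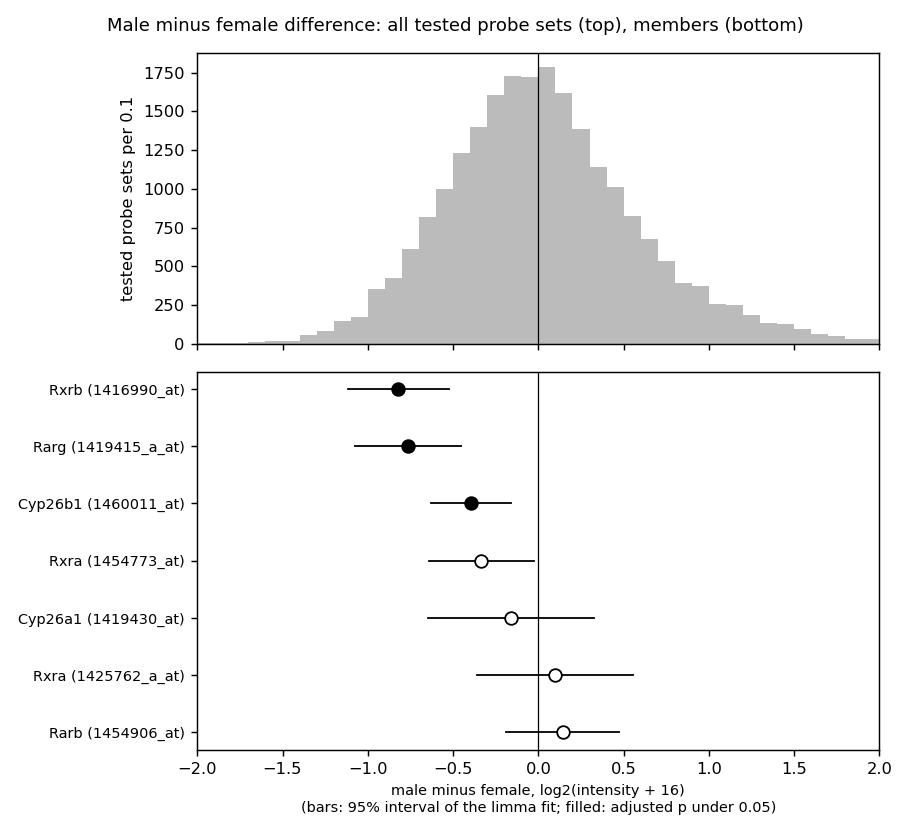
Male minus female differences on the log2(intensity + 16) scale for all 22519 tested probe sets (top, number per 0.1, 2 units either side of 0) and for the 7 tested members (bottom, with the 95% interval of the limma fit, filled where the adjusted p was under 0.05). The 3 filled points, Rxrb at -0.82, Rarg at -0.77 and Cyp26b1 at -0.40, lie left of 0. Of all tested probe sets, 5.44%, 6.67% and 22.2% had a lower difference than these 3 in turn.

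Whether members moved unequally was examined within arrays, as the difference between the log2 values of 2 member probe sets on the same array. In 21 pairs of the 7 tested probe sets, 8 pairs separated the sexes without overlap, each with an exact permutation p of 0.0286 (two-sided, 4 against 4 arrays, the smallest possible). After adjustment over the 21 pairs the smallest p was 0.0751, so 0 pairs passed. The share of such pairs among all tested probe sets was not computed, and 37.1% of single tested probe sets separated the sexes. The 21 pairs also reuse the same 7 probe sets, so the count of 8 is not a result about these genes. The Rarb to Rarg contrast was 0.91 higher in males and the Rarb to Rxrb contrast 0.96 higher in males on the log2 scale. The Rarg to Rxrb contrast differed by 0.06 with overlapping ranges, and the Cyp26a1 to Cyp26b1 contrast by 0.24 (exact permutation p = 0.371). None of these p-values shows that 2 genes changed alike.

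The genes whose profile over the 8 arrays was most like that of a called member were found by the root mean square difference of log2 values centred on each gene's mean, among 11488 other genes. For Cyp26b1 these were Nf2, Mvb12b and Esam, at 0.053, 0.061 and 0.061, where the median over all genes was 0.302. For Rxrb they were Stambpl1, Icam2 and Sac3d1, at 0.087, 0.096 and 0.096 (median 0.439). For Rarg they were Senp1, Plin2 and Mex3a, at 0.081, 0.083 and 0.084 (median 0.399). All 9 had a lower mean in males, which follows from choosing them for likeness to members lower in males. Mvb12b and Esam were not called (limma adjusted p = 0.0749 and 0.0545). All profiles share the same 8 arrays and their scaling.

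The rest of the retinoid pathway was read on the brightest tested probe set of each gene, from lists chosen with earlier results of these data known. In the list of binding, transport and synthesis, 2 of 11 tested genes were higher in males and 4 were lower, the other 5 missing the threshold, beside 14% and 28.2% of all 11489 tested genes in these directions. The synthesis enzymes Rdh10, which oxidizes retinol, and Aldh1a3, which makes retinoic acid from retinal, were higher in males. Rdh10 had 11780 ± 2252 in males and 6661 ± 648 in females (SD, n = 4 each), a difference of 0.81 ± 0.13 (limma adjusted p = 0.000674). Aldh1a3 had 472 ± 15.4 in males and 264 ± 53.0 in females, a difference of 0.82 ± 0.19 (limma adjusted p = 0.00545).

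The cellular binding proteins went the other way. Crabp1, which holds retinoic acid in the cytoplasm, differed by -1.61 ± 0.16 and Crabp2, which delivers it to RARs and is itself induced by it, by -1.06 ± 0.11. Fabp5, a lipid carrier that can also deliver retinoic acid, differed by -0.27 ± 0.06, and the alcohol dehydrogenase gene Adh5 by -0.18 ± 0.06. The Adh5 call was lost without any 1 of male replicates 2 and 3 and female replicates 1 and 3 (limma adjusted p up to 0.103). Aldh1a2, the main retinoic acid synthase of embryonic mesenchyme, had 2114 ± 797 in males and 1791 ± 548 in females and did not pass (0.21 ± 0.27, limma adjusted p = 0.559). Dhrs3, which turns retinal back to retinol and responds to retinoic acid, did not pass either (-0.30 ± 0.22, limma adjusted p = 0.29).

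Of 8 tested genes known as retinoic acid targets, 2 were higher in males, 1 was lower and 5 did not pass, with a median difference of 0.05 beside -0.12 over all tested genes. The share called, 37.5%, was near the 42.2% of all tested genes. The 2 were Meis2 (0.54 ± 0.12) and Meis1 (0.45 ± 0.13), homeobox factors of proximal limb identity. Crabp2, which also stands in the binding list, was the gene that was lower in males. Meis1 missed the threshold without male replicate 3 (0.39, limma adjusted p = 0.0555). The 28 genes with a DR5 match in the window, a list made from sequence after the values were seen, included 11 with a probe set and 5 that were tested. Of these 5, the embryonic globin gene Hbb-y was called (0.24 ± 0.07, higher in males), while another probe set for it was called lower in males. The other 4, with Rarb and Cyp26a1 among them, were not called, so 20% of the 5 were called beside 42.2% of all tested genes. This share leaves out the DR5 genes below the filter. With no filter, Blvrb (-1.497) and Syndig1 (-1.099) were lower in males, with ranges apart (limma adjusted p = 0.0128 and 0.0155). The remaining DR5 genes below the filter, Cfap45, Gm14133, Prss27 and Tnfsf13b, did not pass without it.

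Coregulators of the receptors were called in both directions. Of 14 tested, 3 were higher in males, 6 were lower and 5 did not pass (64.3% called, beside 42.2% of all tested genes). The 3 included Tbl1xr1, a subunit of a corepressor complex (0.64 ± 0.08), and the coactivator gene Ncoa2 (0.58 ± 0.09). The 6 lower in males included the X-linked Tbl1x (-0.92 ± 0.12), a close relative of Tbl1xr1 in the same complex, the corepressor scaffold gene Sin3a (-0.74 ± 0.11), the arginine methyltransferase gene Carm1 (-0.68 ± 0.12) and Tacc1 (-0.45 ± 0.14). Tbl1x and Sin3a each had 1 other probe set called in the opposite direction. Of the 3 tested probe sets of Tbl1x, 2 went opposite to the value given, 1 of them without a call. Ncoa2 and Tacc1 each had 1 other tested probe set that went the opposite way without a call. The call of Tacc1 was lost without male replicate 4, female replicate 1 or female replicate 2 (limma adjusted p up to 0.0604).

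Among 4 tested receptors that also pair with RXR, Nr4a2, an orphan receptor, was higher in males with 3501 ± 859 in males and 1839 ± 414 in females (0.92 ± 0.20), and 3 did not pass. The share called was 25%, beside 42.2% of all tested genes (14% higher in males). Of 13 listed, most were below the filter, so partners of RXR were covered thinly. In the list of electron supply to P450 enzymes, the 3 tested genes, of cytochrome b5 and its reductase, were lower in males, as were 28.2% of all tested genes. Por, which encodes the main electron donor of these enzymes, was not analysed here. The 3 were Cyb5r3 (-0.53 ± 0.13), Cyb5a (-0.51 ± 0.08) and Cyb5b (-0.44 ± 0.10).

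**Figure D4:**
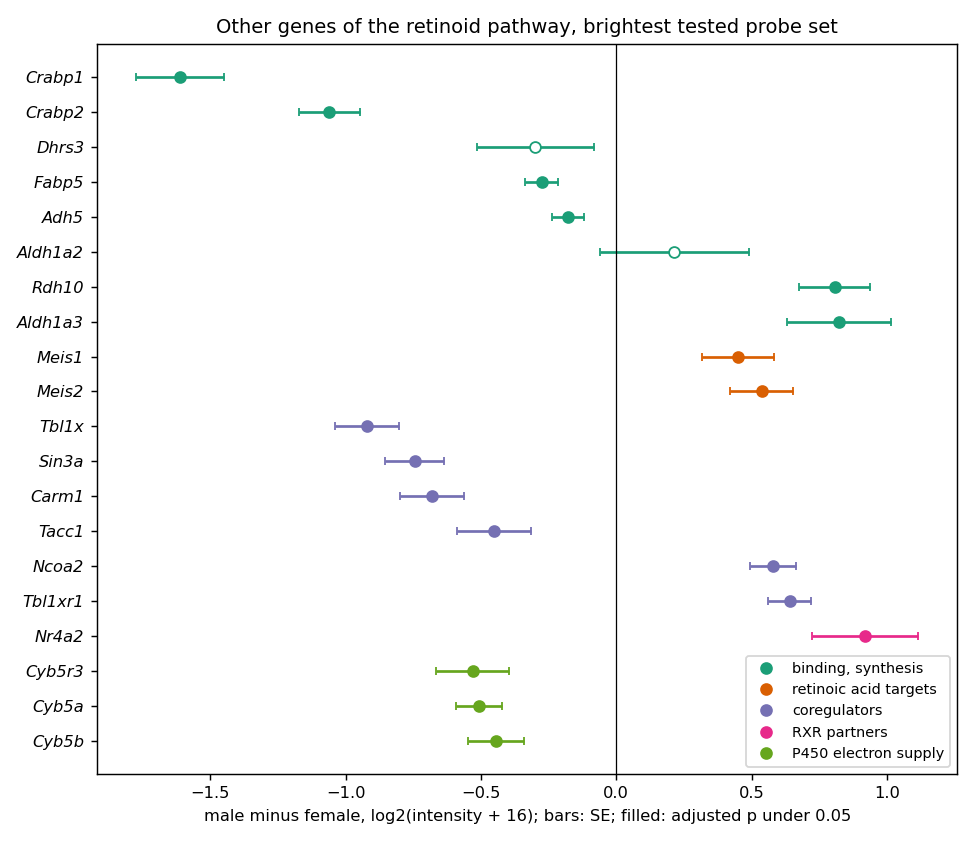
Male minus female differences (log2(intensity + 16), bars are SE) of the 20 named retinoid pathway genes outside the 8 members, coloured by list and filled where the adjusted p was under 0.05. Crabp1 at -1.61 is the lowest and Nr4a2 at 0.92 the highest.

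Calls of members depended on whether the level of the 3' 18S probe set, whose ranges in the sexes did not overlap, entered the fit. With the 3' 18S probe set as a covariate, the differences of Rarg, Rxrb and Cyp26b1 were -0.96, -0.72 and -0.52, while the SE of the 7 tested members was 1.69 to 1.86 times as large. The limma adjusted p then came to 0.0722, 0.133 and 0.161, so 0 members were called by limma (3 at an unadjusted p under 0.05). Over the whole array 414 probe sets were called in that fit, among them those of Crabp1 and Crabp2. With the middle 18S probe set, which overlapped between the sexes (31917 ± 7572 in males and 24415 ± 7494 in females), the 3 calls were kept. That covariate was chosen after seeing the data, and with it 6171 probe sets were called, against 9128 without a covariate.

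**Figure D5:**
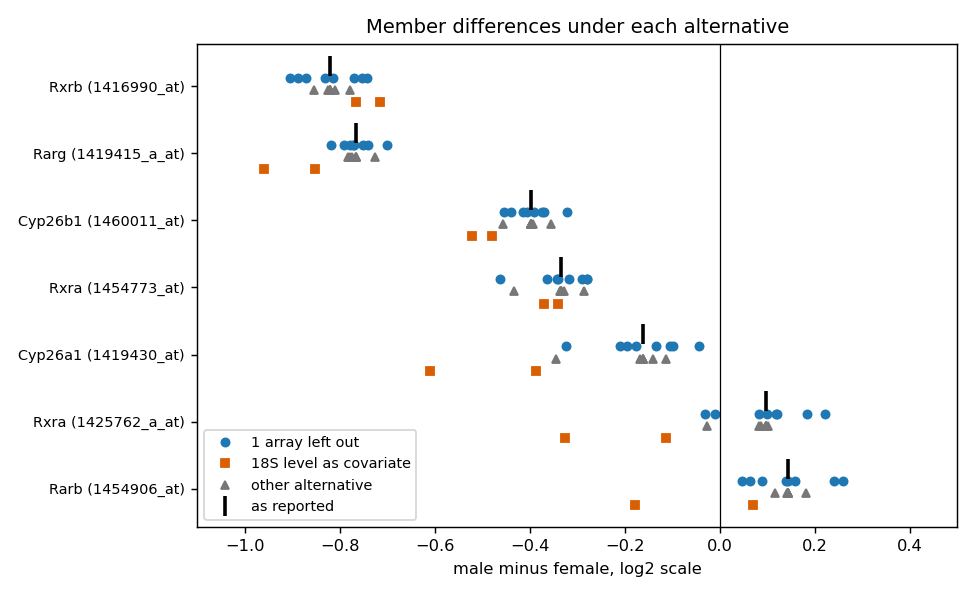
Male minus female differences (log2 scale) of the 7 tested members as reported and under each alternative. Rxrb, Rarg and Cyp26b1 stay left of 0 under all alternatives run on them, as do Rxra (1454773_at) and Cyp26a1, which were not called. Rxra (1425762_a_at) and Rarb fall on either side.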

How the data were processed

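The authors deposited a linear intensity for each of 45101 probe sets on 8 arrays. The submitters' processing notes name GCOS, software of the array maker, with no version. Every column had the same trimmed mean, so no further normalization was made. Per the labels, RNA was amplified in 2 rounds and samples were not pooled. Sex and replicate number came from the sample titles. Genes were named from platform annotation naming 1 gene (34945 probe sets), with chromosomes and promoter sequences from RefSeq (GRCm38.p6). All 8 members had at least 1 promoter window.

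Values were taken as log2(intensity + 16), without the 64 control probe sets. Those whose mean reached the median over probe sets (22519) were tested with limma 3.58.1 in R 4.3.3 (lmFit, eBayes with trend, sex as the only term). The fit was tested on simulated data. No 2 arrays were identical, and same-numbered arrays did not deviate together (correlations of -0.126 to 0.0391). Named pathway genes were up to 6 called genes per list plus a fixed set. Members, lists and the contrasts within arrays were chosen with earlier results of these data known. Alternatives changed the normalization (quantile), the pseudocount (1 or 64), the filter (none or the upper quartile), the variance model and the array weights, added a replicate block or an 18S covariate, or left out each array; the covariate from the middle 18S probe set was chosen after seeing the data.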

Additional observations from a re-analysis of the deposited data

Results flagged for a closer look

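In groups of 4 arrays, a value far from the other 3 was looked for in the 11 member probe sets, 4 sex-linked check genes and 6 array measures, and chance flags about 1 in 20 such groups. Of 42 groups, 3 held one. The dim Rxra probe set 1430497_at read 67.69 on female replicate 3, against 29.0 to 34.15 on the other female arrays, and was not tested. Xist read 16036 on male replicate 3. The 5' probe set for 18S ribosomal RNA read 20251 on female replicate 2, against 4407 to 6839 on the other female arrays.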

How the results depend on the processing

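Of 130 values of the 7 tested members under up to 19 alternatives, 119 kept their direction and their side of the threshold. The 3 member calls became 0 with the 3' 18S level as a covariate, also among those lower in males, and no member was called higher in males under any alternative. Without 1 array, 3 to 4 members were called, 18 to 24 pathway genes (11 to 13 lower in males) and 7321 to 9454 probe sets. With the 18S covariate, the 21 called pathway genes became 2 (0 higher in males and 2 lower in males, where 8 and 13 were called without it) and the 9128 called probe sets became 414. At the upper-quartile filter 5890 probe sets were called of the fewer tested. Signs turned for values that had not passed: Rarb to -0.18 and Aldh1a2 to -0.049 with the 18S covariate, and Rxra (1425762_a_at) to -0.027 with quantile normalization, -0.33 with the 18S covariate and -0.11 with the middle 18S probe set. Without 1 array it ranged from -0.031 (female replicate 3) to 0.22 (female replicate 2), with -0.011 without male replicate 1. Of 18 named pathway genes called, 16 lost the call with the 18S covariate, and Adh5 alone lost it under the replicate block, under which 3 members and 8460 probe sets were called; replicate numbers did not pair the samples. With no variance trend 17 pathway genes were called, and Fabp5, Meis1 and Adh5 missed the threshold (limma adjusted p = 0.0531, 0.0524 and 0.151). The cause of these changes was not tested. Rara, Rxrg and 1 probe set each of Rarg and Rxra were too dim to test.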
